A study of Mus musculus with 45 samples.

Results

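The transcriptome of microglia sorted from control adult mice was compared with that of whole brain tissue from untreated adult mice. The comparison rests on 8 of the 45 samples of the study, namely the 4 microglia libraries labelled WT-PBS and the 4 brain libraries labelled WT-UT, whose gene tables were joined by Ensembl gene identifier without its version. The rest of the study concerned LPS-injected adult mice and microglia of cultured brain slices, and apart from the LPS libraries of the same 2 tissues it is not used here. The question was which genes stood at least 20-fold higher or lower in microglia than in brain tissue of other mice. A further question was what level of other-cell marker transcripts was found after sorting.

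All 8 libraries came from C57BL/6 female mice 10 to 15 weeks old that were perfused through the heart with cold phosphate-buffered saline (PBS) containing EDTA. The microglia donors had received PBS intraperitoneally 24 h earlier, and the labels give no treatment for the tissue mice. Microglia were released with a dounce homogeniser, enriched on Percoll and sorted by flow cytometry as DAPI-negative, CD11b high and CD45 intermediate cells. Their RNA was amplified with the SMART-Seq v4 low-input kit, tagmented with Nextera XT and sequenced from both ends, whereas tissue RNA went through the TruSeq mRNA kit and was sequenced from 1 end. The paper gives the RNeasy Micro kit for microglial RNA, and QIAzol with the RNeasy Mini kit for RNA of whole cerebrum. RNA extraction, library kit, read layout, sequencing project and injection therefore coincide with tissue and cannot be told apart from it in any value below. The libraries of a group came from independent mice, so p-values measure the spread between animals together with that of library preparation.

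Microglia are the resident macrophages of the brain parenchyma. They survive on signals through the CSF1 receptor, sense tissue damage through purine receptors, and take up and digest synaptic material, debris and dying cells with the help of complement, Fc and TREM2 receptors and an abundant lysosomal system. The transcription factor PU.1, encoded by *Spi1*, is required for the lineage and binds purine-rich ETS sequences near many myeloid genes.

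Microglia libraries held 12284239 to 14197864 counts and tissue libraries 9641582 to 10368603, and mitochondrially encoded genes took 0.409% to 0.465% of the former and 6.01% to 6.1% of the latter. In the tissue table, 3 stretches of chromosomes 1 and 2 with 1147 genes were listed at 0 in every library although microglia expressed genes of each of them. The 234 genes of these stretches that could be tested all stood over the 20-fold limit. They are left out of every count below, which leaves 15594 genes, except in the closing section on processing. Levels are counts per 1000000 counts (CPM) after scaling by edgeR's trimmed mean of M-values (TMM), and differences are log2 of microglia over tissue from edgeR's quasi-likelihood test with Benjamini-Hochberg adjustment. The SE given after ± does not come from that fit. It is taken from the spread between libraries of log2 CPM with a prior count of 2. That prior damps the spread where counts are few, so the SE understates the error there, as for *Cx3cl1* with 12 counts in microglia.

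Microglia and whole brain differed for most genes. At an adjusted p below 0.05 and more than 1.5-fold, 5248 genes (33.7% of those tested) were higher in microglia and 7201 (46.2%) were lower, while 3145 were not called. At the 20-fold limit, 878 genes (5.63%) were higher and 3680 (23.6%) lower. In each of these 4558 genes all 4 microglia libraries lay on the same side of all 4 tissue libraries. Selection at this limit in the same libraries all but fixes that, and the share over all genes was not counted, so it is no separate support. The median log2 difference over all 15594 genes was -0.34. The 878 genes supplied 30.9% to 32.5% of the CPM of a microglia library and 0.439% to 0.455% of that of a tissue library. The 3680 genes supplied 0.322% to 0.349% and 35.4% to 35.7%, respectively. In bulk RNA of this kind, fewer cells of a type and less RNA per cell cannot be told apart.

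**Figure D1:**
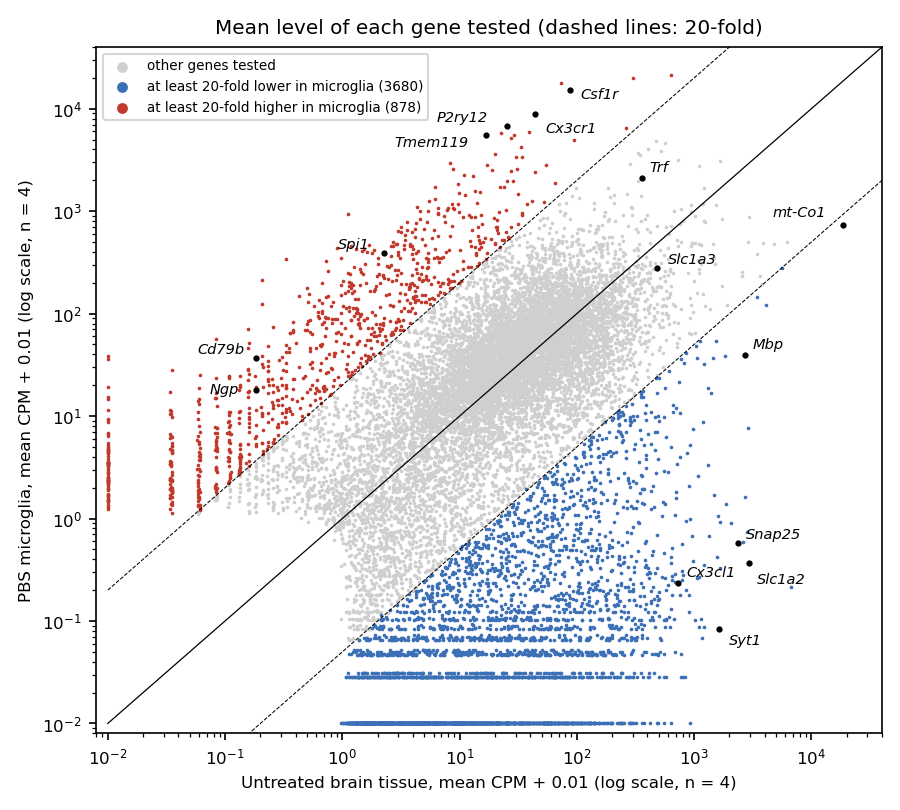
Mean level of each tested gene in 4 untreated brain tissue libraries (horizontal) and 4 microglia libraries (vertical), both as CPM + 0.01 on log axes, with the genes past the 20-fold limits coloured. The 878 genes at least 20-fold higher lie along the upper edge and the 3680 at least 20-fold lower along the lower edge, where many were listed at 0 or near 0 in microglia.

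The size of many 20-fold differences was set by how little was counted on the low side. Of the 878 higher genes, 73 had no count in any tissue library and 134 had 1 to 3 counts in all, so their fitted folds depend on the prior count and are not quoted. The 345 genes with at least 10 counts in every tissue library had a median log2 difference of 5.68, and 96 of them exceeded 100-fold. Of the 3680 lower genes, 1265 had no count in microglia, 1054 had 1 to 3, and 283 had at least 10 counts in every microglia library. These 283 stood at a median of 2.62% of their tissue level, with 54 of them under 1%.

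The sort gate and the identity of the cells were checked first. *Itgam*, which encodes CD11b, measured 1916, 1689, 1646 and 1657 CPM in microglia replicates 1 to 4 and 22.9, 23.1, 22.5 and 20.5 CPM in tissue replicates 1 to 4. *Ptprc*, which encodes CD45, measured 494, 478, 465 and 485 CPM and 4.61, 2.37, 3.43 and 4.57 CPM in the same order. The log2 differences were 6.28 ± 0.06 and 7.01 ± 0.22 (SE), and as the gate selected these proteins both are a check and not a finding.

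All 20 textbook microglia markers examined were at least 20-fold higher in the sorted cells, against 5.63% of all genes tested. Their median log2 difference was 7.56 against -0.34 over all genes. *P2ry12*, the ADP receptor that guides microglial processes to injury (chr3:59216272-59262871), measured 7423, 6719, 6696 and 6395 CPM in microglia and 27, 24.6, 27.2 and 23.4 CPM in tissue. *Tmem119*, a membrane protein used to mark microglia (chr5:113793729-113800516), measured 5456, 5576, 5664 and 5643 and 16.2, 14.1, 18 and 18.6 CPM. *Gpr34*, a lysophosphatidylserine receptor, measured 3216, 2942, 2889.6 and 2855 and 8.92, 7.88, 8.38 and 7.92 CPM. The 4 libraries of each group lay close together for all 3 genes and the groups were far apart, with log2 differences of 8.06 ± 0.07, 8.39 ± 0.09 and 8.49 ± 0.06. *Gpr34* had the largest fold, 359, among the 345 genes well counted in tissue (adjusted p = 7.85e-29, edgeR's quasi-likelihood test). *Sall1*, a transcription factor that maintains microglial identity, had the smallest difference of the 20, with 574, 553, 569.5 and 543 CPM against 26.1, 22.9, 26.6 and 27.3 CPM and a log2 difference of 4.45 ± 0.06. Summed over the 20 markers, tissue held 0.518% ± 0.0217 (SD, n = 4) of the microglial level, and 19 of 20 markers stood under 1%, *Sall1* being the exception at 4.59%.

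**Figure D2:**
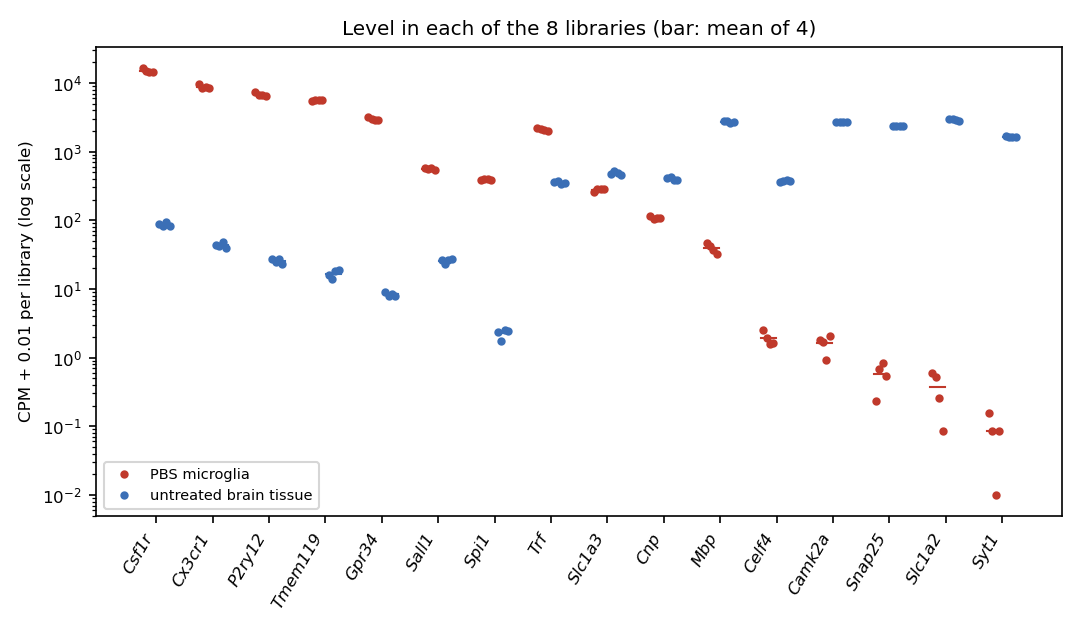
Level of the named genes in each of the 4 microglia and 4 brain tissue libraries, as CPM + 0.01 on a log axis, where each point is 1 library, the bar is the mean of 4 and a point at 0.01 is a library with 0 counts. For the genes at least 20-fold higher the points of a group lie close together, whereas the microglia points of lower genes with few counts, such as *Slc1a2* and *Snap25*, spread. The groups do not overlap for any 20-fold gene, which the selection of these genes all but fixes.

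The other genes with the largest well-counted folds were receptors and signalling proteins of myeloid cells. By fold they followed *Gpr34* and *Tmem119* as *P2ry13*, a further ADP receptor (290.1-fold), *Gna15*, a G protein alpha subunit of blood cells (281-fold), *C3ar1*, the receptor of the complement fragment C3a (279-fold), *Cd86*, a T cell costimulatory ligand (276-fold), and *Fcgr3*, an activating IgG receptor (274-fold). *Selplg*, the selectin ligand PSGL-1, *Slc2a5*, a fructose transporter, and *Tlr13*, a receptor of bacterial ribosomal RNA, were also among the 12, at 257-, 251- and 247-fold. Their order was not resolved, as the neighbouring log2 differences from *P2ry13* (8.18 ± 0.09) to *Fcgr3* (8.10 ± 0.10) lay within their standard errors.

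Per kilobase of exon, genes of the lysosomal system were among the most abundant of the 878. *Cst3*, which encodes the cathepsin inhibitor cystatin C, led with a mean of 16711 CPM per kb in microglia, and *Ctsd*, cathepsin D, measured 8491 CPM per kb. Below *Ctsd* came *C1qb*, *Ctss*, *C1qa*, *P2ry12*, *C1qc*, *Csf1r* and *Tmem119*, from 5072 down to 2412 CPM per kb, then *B2m*, the light chain of MHC class I, and *Lgmn*, the lysosomal protease legumain. *Cst3* was also plentiful in tissue, at 594, 709, 608 and 622 CPM against 20462, 21504, 21592 and 21068 CPM in microglia, so its log2 difference of 5.06 ± 0.06 was among the smaller of the group. All 21 lysosomal genes examined were higher in microglia and 13 passed 20-fold, with a median log2 difference of 5.06. Over all genes tested, 33.7% were higher and 5.63% at least 20-fold higher. The members below 20-fold included the cathepsins *Ctsb* (2.86 ± 0.02) and *Ctsl* (3.82 ± 0.04) and the membrane glycoproteins *Lamp1* (2.46 ± 0.04) and *Lamp2* (3.61 ± 0.04), all of which tissue expressed at 50 CPM or more.

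The transcription factors of the macrophage lineage were graded. Of 17 tested, 16 were higher and 10 at least 20-fold, against 33.7% and 5.63% of all genes tested, with a median log2 difference of 4.58. *Spi1* measured 391, 394, 394 and 382 CPM in microglia and 2.35, 1.71, 2.52 and 2.44 CPM in tissue (7.43 ± 0.12), and *Irf8*, its partner in myeloid development, 791, 743, 797 and 762 and 4.41, 3.99, 3.84 and 4.88 CPM (7.50 ± 0.08). *Irf5*, *Runx1*, *Fli1*, *Ikzf1*, *Cebpb*, *Cebpa* and *Sall1* were also among the 10. *Mef2a* (2.12 ± 0.05), *Bhlhe41* (1.32 ± 0.06) and *Tal1* (1.00 ± 0.15) were higher by smaller margins. *Mef2c*, a MADS-box factor that neurons also express, was not called, at 755, 668, 683 and 699 CPM in microglia and 569, 565, 569 and 590.4 CPM in tissue, but was called higher (0.87) once the trend of fold change with gene length and GC content was removed.

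Promoter sequences of 4 of the 878 genes and 2 of the 3680 are shown so that the ETS letters counted below can be seen. They come from RefSeq on GRCm38.p6 and run 5′ to 3′ on the gene's strand from 250 bases before to 50 bases after the start that RefSeq annotates. That start can differ from those of the GRCm38 annotation used for the genes. The nearest transcript start there was at the same base for *Ctss* and lay 13 bases away for *C1qb*, 38 for *C1qc*, 58 for *Syp*, 114 for *P2ry12* and 159 for *Nrgn*, and the *P2ry12* window lies wholly upstream of the gene as that annotation draws it. Capitals mark the first match to GAGGAAGT, the PU.1 consensus, or, failing that, to the shorter AGGAAGT it contains, read on either strand (ACTTCCTC and ACTTCCT on the reverse), and the last 2 promoters hold neither. The windows lie at chr3:95526536-95526835 (plus strand) for *Ctss*, chr4:136892865-136893164 (minus) for *C1qc*, chr3:59262936-59263235 (minus) for *P2ry12*, chr4:136886151-136886450 (minus) for *C1qb*, chr9:37552696-37552995 (minus) for *Nrgn* and chrX:7638330-7638629 (plus) for *Syp*.
Ctss: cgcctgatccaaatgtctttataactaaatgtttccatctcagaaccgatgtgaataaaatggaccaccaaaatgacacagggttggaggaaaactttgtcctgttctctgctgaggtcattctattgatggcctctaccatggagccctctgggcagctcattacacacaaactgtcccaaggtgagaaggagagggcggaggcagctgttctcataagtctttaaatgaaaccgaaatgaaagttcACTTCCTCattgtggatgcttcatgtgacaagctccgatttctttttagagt
C1qc: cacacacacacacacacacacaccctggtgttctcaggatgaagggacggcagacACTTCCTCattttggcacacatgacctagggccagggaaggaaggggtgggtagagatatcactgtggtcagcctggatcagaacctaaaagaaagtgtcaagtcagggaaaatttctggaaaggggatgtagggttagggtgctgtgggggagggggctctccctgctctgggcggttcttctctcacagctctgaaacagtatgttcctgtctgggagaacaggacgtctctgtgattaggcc
P2ry12: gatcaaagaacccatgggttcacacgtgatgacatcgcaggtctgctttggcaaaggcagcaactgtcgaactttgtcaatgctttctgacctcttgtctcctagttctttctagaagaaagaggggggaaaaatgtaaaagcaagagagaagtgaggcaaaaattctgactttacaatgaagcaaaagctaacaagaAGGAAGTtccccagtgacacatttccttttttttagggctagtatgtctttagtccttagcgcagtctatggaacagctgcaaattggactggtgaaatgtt
C1qb: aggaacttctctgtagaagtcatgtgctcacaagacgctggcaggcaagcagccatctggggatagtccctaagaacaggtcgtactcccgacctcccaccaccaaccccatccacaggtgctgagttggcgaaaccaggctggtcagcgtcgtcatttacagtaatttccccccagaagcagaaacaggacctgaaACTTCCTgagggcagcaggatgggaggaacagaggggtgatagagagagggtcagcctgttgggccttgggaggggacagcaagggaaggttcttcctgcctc
Nrgn: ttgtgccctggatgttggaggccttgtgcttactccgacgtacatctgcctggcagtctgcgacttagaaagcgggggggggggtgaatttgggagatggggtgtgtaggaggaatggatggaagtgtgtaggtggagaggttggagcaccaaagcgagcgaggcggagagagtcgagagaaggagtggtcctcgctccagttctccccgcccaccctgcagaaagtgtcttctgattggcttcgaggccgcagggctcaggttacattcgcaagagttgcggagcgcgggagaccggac
Syp: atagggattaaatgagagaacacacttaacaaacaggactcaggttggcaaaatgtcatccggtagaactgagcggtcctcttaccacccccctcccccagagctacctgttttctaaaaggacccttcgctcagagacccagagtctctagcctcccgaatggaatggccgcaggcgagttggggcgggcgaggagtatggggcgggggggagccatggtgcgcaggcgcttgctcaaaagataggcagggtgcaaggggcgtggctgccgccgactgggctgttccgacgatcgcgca
GAGGAAGT occurred in 75 of the 552 genes at least 20-fold higher that had a window (13.6%), in 40 of 2458 at least 20-fold lower (1.63%) and in 3.53% of all 11243 tested genes with a window. It occurred in 3.2% of all 32851 windows. AGGAAGT occurred in 27.4%, 6.59% and 10.3% of the same gene groups and in 9.35% of windows. GAGGAAG, which GAGGAAGT also contains, occurred in 31.5%, 15.7% and 16%, and in 13.6% of windows. Of the other strings searched, the AP-1 string TGAGTCA occurred in 8.15%, 5.49% and 4.45%, the E-box CACGTG in 8.7%, 8.99% and 11.3%, and the CREB string TGACGTCA in 0.543%, 2.52% and 3.42% of the higher, lower and all tested genes, against 5.2%, 7.15% and 1.79% of windows. GCATGC occurred in 7.43%, 8.58% and 11.1% of these groups and in 7.93% of windows, TCACGTGA, which contains CACGTG, in 0.906%, 0.854% and 1.96% and in 0.974% of windows, and GAACTTTT in 1.63%, 0.773% and 0.961% and in 1.08% of windows. The PU.1-IRF composite, GGAAGT followed directly by GAAA, occurred in 0.906%, 0.122% and 0.294% and in 0.225% of windows. Of the 20 microglia markers, 13 had a window, 2 of which held GAGGAAGT and 6 AGGAAGT. A match is a description of letters in a window and neither a binding site nor a cause, and no match says nothing of PU.1.

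Phagocytic receptors and their signalling chain were higher throughout. All 20 genes of the Fc receptor and ITAM pathway, which carries signals from IgG and TREM2 receptors through Syk kinase, were at least 20-fold higher, with a median log2 difference of 6.98. Over all genes tested, 5.63% were. A member could pass the low-count filter through microglia alone, as *Fcgr4* did with 776 counts there and 2 in tissue. Among receptors, *Fcgr3* measured 1674, 1709, 1686 and 1767 CPM in microglia and 7.45, 6.17, 5.35 and 5.89 CPM in tissue, and *Trem2*, a lipid receptor, 1476, 1554, 1547 and 1479 and 9.41, 9.78, 10.1 and 10.2 CPM. The adaptor chains *Tyrobp* and *Fcer1g* differed by 6.87 ± 0.06 and 7.51 ± 0.12. Downstream, *Syk* measured 221, 228, 244 and 235 CPM against 4.7, 4.56, 5.75 and 5.48 CPM (5.50 ± 0.09) and *Inpp5d*, the phosphatase SHIP1, differed by 6.43 ± 0.04. *Fgr*, a Src-family kinase, was the lowest in level and in difference, at 5.46, 5.47, 4.09 and 4.18 CPM against 0.294, 0, 0 and 0.102 CPM, and tissue held 4 counts of it in all.

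Toll-like receptors and their co-receptors were likewise higher, with 20 of 20 tested called, 15 of them at least 20-fold, and a median log2 difference of 6.53. The shares of all genes tested were 33.7% higher and 5.63% at least 20-fold higher. *Cd14*, the co-receptor that hands LPS to TLR4, measured 452, 469, 441 and 451 CPM in microglia and 0.882, 1.04, 0.808 and 1.93 CPM in tissue, the largest difference of the list (8.60 ± 0.25). *Tlr4* measured 209, 192, 182 and 208 CPM against 1.18, 1.23, 1.21 and 1.12 CPM and *Tlr2* 267, 250.3, 239 and 248 CPM against 0.98, 1.61, 0.909 and 0.914 CPM. The adaptor *Myd88* passed the limit (4.45 ± 0.13), whereas *Ticam1*, the adaptor TRIF, differed by 1.44 ± 0.15 with 13.9, 12.8, 13.9 and 11.6 CPM against 5.68, 3.8, 4.24 and 5.59 CPM. *Tlr3* (3.27 ± 0.05) and *Tlr9* (2.06 ± 0.15), which sense nucleic acids in endosomes, were higher but below 20-fold.

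Complement genes lay on both sides. Of 19 genes tested, 12 were higher, 10 of them at least 20-fold, and 6 were lower. Over all genes tested, 33.7% were higher, 5.63% at least 20-fold higher and 46.2% lower. The 3 chains of C1q, the recognition molecule of the classical pathway, measured 3217, 3431, 3296 and 3462 CPM for *C1qa*, 5388, 5632, 5539 and 5514 CPM for *C1qb* and 5013, 5296, 5086 and 5089 CPM for *C1qc* in microglia. Tissue held 28.9, 30.2, 30 and 31.3 CPM of *C1qa*, 29.2, 31.3, 25.3 and 29.5 CPM of *C1qb* and 26.9, 25.8, 28.7 and 28.8 CPM of *C1qc*, and the log2 differences were 6.80 ± 0.03, 7.58 ± 0.07 and 7.54 ± 0.04. The receptors of the cleavage fragments, *C3ar1* and *C5ar1*, and the chains of complement receptor 3, *Itgam* and *Itgb2*, were among the 10. Of the C1 proteases, *C1ra* was higher by 0.92 ± 0.14. *C1s1* had 0 counts in microglia against 1.37, 2.09, 2.73 and 1.42 CPM in tissue, a level at least 33.3-fold lower when 3 counts over the group are taken as the floor. *C4b* was lower (-1.62 ± 0.30), as were *C2*, *Cfb*, properdin (*Cfp*) and *Cd59a*. *C3* measured 2.8, 2.59, 0.667 and 1.05 CPM in microglia and 0.784, 1.23, 1.21 and 1.42 CPM in tissue and was not called, though it was called higher without microglia replicate 3 (0.90) or once the trend of fold change with gene length and GC content was removed (0.92).

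Purine receptors and ectoenzymes also lay on both sides, with 7 of 13 higher and 6 lower. All genes tested lay on both sides too, with 33.7% higher and 46.2% lower. *P2ry12*, *P2ry13*, *P2ry6*, *Adora3*, the ATP-hydrolysing *Entpd1* (CD39) and the ATP-gated channel *P2rx7* were at least 20-fold higher, and *P2rx4* differed by 3.49 ± 0.04. *P2ry6*, a UDP receptor, measured 387, 408, 396 and 375 CPM against 1.08, 1.8, 2.22 and 2.03 CPM. On the lower side, *P2ry1* had 0 counts in microglia against 5.59, 6.27, 4.44 and 4.77 CPM in tissue (at least 92.1-fold lower). *Adora2a*, the adenosine receptor abundant in striatal neurons, had 1 count in microglia, 0.0389% of its tissue level (95% exact counting interval 0.000985% to 0.217%). *Nt5e* (CD73), which makes adenosine from AMP, was lower at 0.516, 0, 0.5 and 0.373 CPM against 6.47, 9.3, 6.16 and 4.98 CPM (-4.25 ± 0.51).

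Antigen presentation by MHC class II was uneven. The loading chaperones *H2-DMa*, *H2-DMb1*, *H2-DMb2*, *H2-Oa* and *H2-Ob* were at least 20-fold higher. *H2-DMb1* measured 159, 168, 175 and 159 CPM against 1.18, 1.42, 0.808 and 1.02 CPM. The chains that display peptide were low in both groups, with *H2-Ab1* at 13.8, 11.6, 11.7 and 12.2 CPM against 1.47, 2.28, 2.02 and 1.73 CPM (2.71 ± 0.14) and *H2-Aa* at 3.84, 2.66, 2.25 and 2.02 CPM against 1.76, 2.94, 3.03 and 1.22 CPM, which was not called. *H2-Eb1* was not called either (0.33 ± 0.28), and *Ciita*, the master regulator of the class, was lower (-1.41 ± 0.32) on 23 counts in microglia. The call of *Ciita* was lost (-0.11) once the trend of fold change with gene length and GC content was removed.

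Of 17 chemokine and chemokine receptor genes tested, 14 were higher and 11 of these at least 20-fold, against 33.7% and 5.63% of all genes tested. A member could pass the low-count filter through microglia alone, as *Ccl2* did with 215 counts there and 2 in tissue. The 14 and 11 are therefore partly a product of the filter. *Ccl6* measured 179, 169, 187 and 168 CPM in microglia and 0.882, 0.854, 1.21 and 1.73 CPM in tissue (7.23 ± 0.21). Several chemokines that respond to activation were present at low levels, such as *Ccl3* at 15.9, 16.7, 10.7 and 16.3 CPM and *Ccl4* at 17, 24, 14 and 20 CPM in microglia, with 3 and 2 counts in tissue. *Ccl12* (62.6, 60, 31.3 and 38.8 CPM) and *Cxcl10* (9.81, 11.1, 1 and 1.79 CPM) varied among microglia libraries, replicates 1 and 2 being above replicates 3 and 4. *Cxcl10* was called higher (3.37 ± 0.85), and lost the call without tissue replicate 2 or 4. *Cxcl14*, which neurons express, was lower, with 5 counts in microglia against 59.7, 71.2, 64.6 and 68.4 CPM in tissue.

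Of 12 receptors tested for signals between brain cells and microglia, 11 were higher and 10 at least 20-fold. Of 14 ligands, 5 were higher and 7 lower, near the shares of all genes tested, of which 33.7% were higher and 46.2% lower. *Csf1r* measured 16292, 15010.4, 14587 and 14573 CPM in microglia and 89, 82.6, 93.3 and 82.6 CPM in tissue (7.44 ± 0.06). Its ligand *Il34*, made by neurons, had 0 counts in microglia against 43.5, 43, 39.5 and 43.1 CPM in tissue (at least 739-fold lower), and its other ligand *Csf1* was not called, at 23.5, 27.4, 20.2 and 21.3 CPM and 23.4, 25.1, 25.4 and 27 CPM. *Cx3cr1* measured 9648, 8448, 8781 and 8527 CPM in microglia and 44.2, 42.2, 48.7 and 39.6 CPM in tissue (7.66 ± 0.08), whereas its neuronal ligand *Cx3cl1* measured 0.369, 0.296, 0.0834 and 0.149 CPM and 719, 726, 701 and 754 CPM (-11.56 ± 0.25). The pair for inhibitory contact showed the same layout. *Cd200r1* measured 29, 26.7, 26.4 and 30.4 CPM against 0.294, 0.0949, 0.505 and 0.305 CPM (6.52 ± 0.28), and *Cd200* had 2 counts in microglia against 95.4, 95.8, 99.9 and 91.4 CPM in tissue, 0.0399% of the tissue level (95% exact counting interval 0.00483% to 0.144%). Of the TGF-beta genes, the receptors *Tgfbr1* (6.37 ± 0.05) and *Tgfbr2* (5.50 ± 0.10) and the ligand *Tgfb1* (5.85 ± 0.11) were at least 20-fold higher. *Tgfb2* and *Tgfb3* were at least 20-fold lower, with 3 and 0 counts in microglia against 18, 16.1, 17.9 and 18.1 CPM and 13.9, 13, 13.9 and 11.9 CPM in tissue. *Sirpa*, the receptor for CD47, was higher by 3.30 ± 0.04 and *Cd47* was not called (0.47 ± 0.05). Of the TAM receptors for dying cells, *Mertk* was higher (4.80 ± 0.11) and *Axl* lower (-1.31 ± 0.31), and their ligands *Pros1* (6.03 ± 0.08) and *Gas6* (1.47 ± 0.05) were both higher. *Apoe*, the lipoprotein of glia, was lower in microglia, at 309, 256, 234 and 202 CPM against 869, 854, 878 and 928 CPM (-1.82 ± 0.13).

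**Figure D3:**
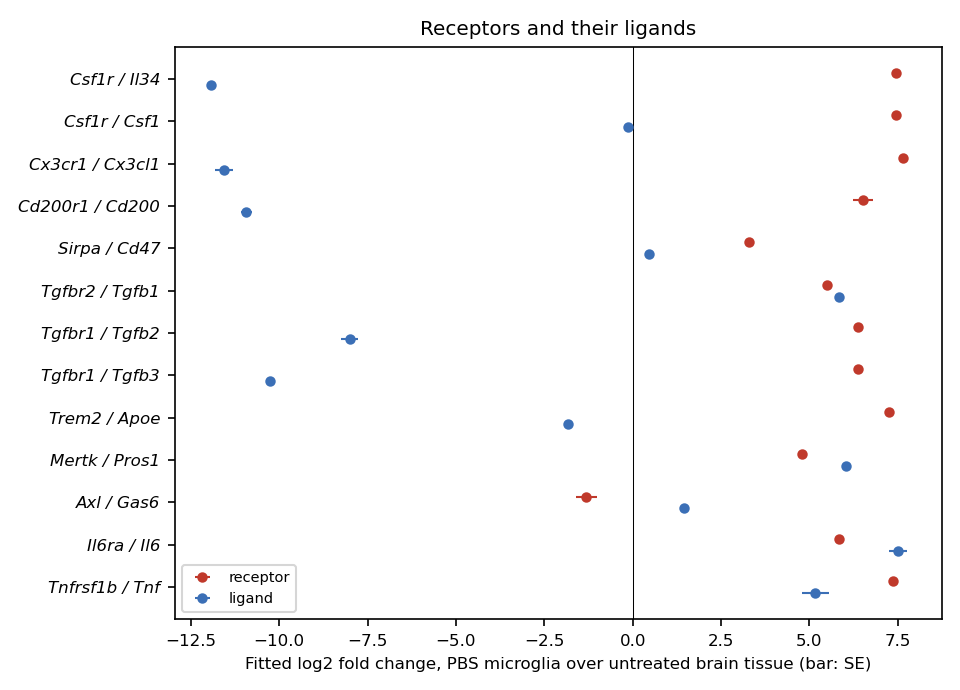
Log2 difference, microglia minus brain tissue, of receptor and ligand pairs, with bars of 1 SE. Most receptors lie above 0 and ligands lie on both sides, and the positions of *Il34* and *Tgfb3*, which had 0 counts in microglia, depend on the prior count of the fit.

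Of 22 immediate early genes tested, which dissociation and death can induce, 8 were higher, 8 lower and 6 not called, near the 33.7% and 46.2% of all genes tested. *Zfp36*, which destabilises cytokine mRNA, measured 114, 155, 129 and 177 CPM against 3.14, 4.56, 4.24 and 4.06 CPM (5.16 ± 0.18), and *Jun* 211, 219, 179 and 317 CPM against 42.6, 45.5, 47.5 and 55 CPM (2.28 ± 0.19). *Egr1* was lower in microglia, at 1.99, 14.6, 5.25 and 18.4 CPM against 159.8, 253, 218 and 306 CPM (-4.53 ± 0.74). *Fos* varied widely in microglia, at 0.221, 4.29, 1.75 and 15.7 CPM, against 8.13, 25.5, 23.9 and 39.7 CPM in tissue and was not called (-2.13 ± 1.22). That depended on the fit. *Fos* was called lower without microglia replicate 4 (-3.51) or tissue replicate 1 (-2.43), with DESeq2 size factors (-2.30), DESeq2 (-2.32) or limma-voom (-3.15), with the LPS libraries in the fit (-2.18) and once the trend with gene length and GC content was removed (-2.50). Among microglia libraries, replicates 2 and 4 were the highest for *Fos*, *Egr1*, *Dusp1*, *Klf2*, *Hspa1a* and *Hspa1b*, and among tissue libraries replicate 1 was the lowest for *Fos*, *Egr1*, *Nr4a1* and *Junb*. Not all members of the list shared the microglial order. In replicates 1 to 4, *Atf3* measured 22.3, 15.4, 18.4 and 16.3 CPM and *Egr2* 2.43, 1.85, 1.83 and 3.14 CPM.

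Genes at least 20-fold lower in microglia were led by neuronal and mitochondrially encoded transcripts. All 17 neuronal markers tested were at least 20-fold lower, against 23.6% of all genes tested. Their median log2 difference was -12.03, or -12.02 with the gene at 0 in microglia set at its bound. *Snap25*, a synaptic vesicle fusion protein, measured 0.221, 0.665, 0.834 and 0.523 CPM in microglia and 2363, 2349, 2334 and 2334 CPM in tissue (-12.02 ± 0.29). *Slc17a7*, the vesicular glutamate transporter, had 5 counts in microglia against 1001, 1012, 1006 and 1071 CPM, and *Slc32a1*, its GABA counterpart, had 0 counts against 131, 126, 135 and 139 CPM (at least 2323-fold lower). *Celf4*, an RNA-binding protein, stood highest of the 17, at 2.51, 1.92, 1.58 and 1.64 CPM against 366, 371, 383 and 378 CPM, 0.511% of the tissue level.

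Among lower genes with at least 10 counts in every microglia library, the largest folds belonged mostly to synaptic and axonal genes. *Sparcl1*, a matrix protein of astrocytes, measured 0.885, 1.11, 0.917 and 0.747 CPM against 1708, 1711, 1594 and 1671 CPM (-10.82 ± 0.10). *Camk2a*, a kinase of excitatory synapses, measured 1.77, 1.7, 0.917 and 2.02 CPM against 2718, 2703, 2695 and 2699.6 CPM (-10.70 ± 0.22). Also among the 12 were *Map1b*, *Dlg4*, *Camk2b*, *Aplp1*, *Psd3*, *Syp*, *Kalrn* and *Tspyl4*, with log2 differences from -9.73 to -8.55.

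By level per kilobase in tissue, 10 of the 12 leading genes of the 3680 were mitochondrially encoded or nuclear copies of such genes. *mt-Co1*, a cytochrome oxidase subunit, measured 673, 777, 747 and 734 CPM in microglia and 18670.1, 18394, 18733 and 18476 CPM in tissue (-4.66 ± 0.04). All 13 mitochondrial protein-coding genes were lower and 6 passed 20-fold, with a median log2 difference of -4.29, close to the limit itself. The copies *Gm28661*, *Gm28438* and *Gm10222* are near-identical to mitochondrial genes, so the division of reads among them is uncertain. The 2 nuclear genes of the 12 were *Nrgn*, neurogranin of dendritic spines, at 0.221, 0.148, 0.0834 and 0.224 CPM against 878, 912, 892 and 970.3 CPM (-12.29 ± 0.15), and *Cpe*, a peptide-processing enzyme, at 2.21, 1.48, 0.167 and 0.373 CPM against 1607, 1624, 1561 and 1565 CPM. Kit and cells cannot be told apart in the mitochondrial share.

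**Figure D4:**
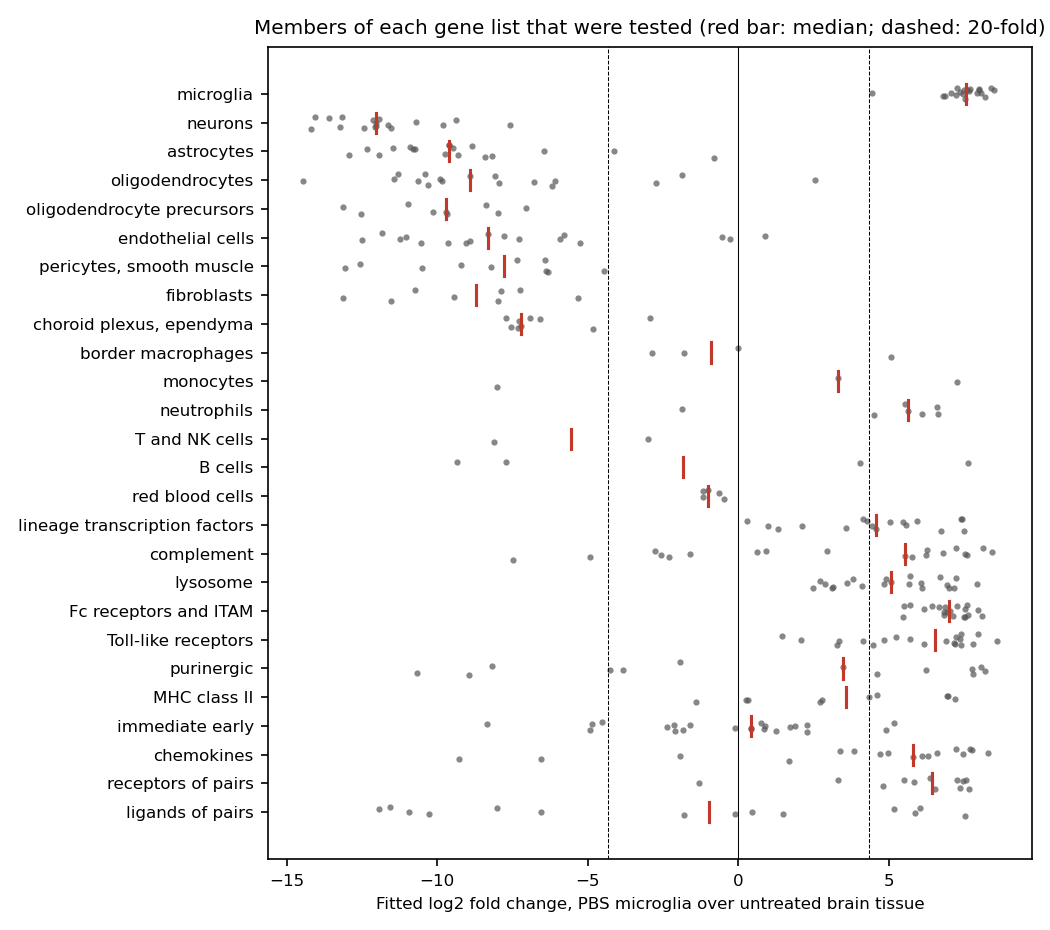
Log2 difference, microglia minus brain tissue, of every tested member of each marker and function list, with the median of each list marked. The microglia, Fc receptor, Toll-like receptor and lysosome lists lie wholly above 0 and the neuron, astrocyte and precursor lists wholly below it.

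Glial and vascular lists were lower with few exceptions. Over all genes tested, 46.2% were lower and 23.6% at least 20-fold lower. Of 18 astrocyte markers, 18 were lower and 16 at least 20-fold (median -9.61, or -9.51 with bounds). The main glutamate transporter *Slc1a2* measured 0.59, 0.518, 0.25 and 0.0747 CPM in microglia and 3003, 3011, 2916 and 2749 CPM in tissue (-12.93 ± 0.37), but its relative *Slc1a3* measured 259.8, 286, 284 and 288 CPM and 475, 529, 479.8 and 459.6 CPM (-0.80 ± 0.06), and its call was lost with the length and GC trend removed (-0.52). All 9 precursor markers tested were at least 20-fold lower (median -9.72), with *Olig1* at 0 counts against 90.7, 98.2, 96.5 and 96.7 CPM (at least 1671-fold lower). Of 17 oligodendrocyte markers, 16 were lower, 14 of them at least 20-fold (median -8.91, or -8.22 with bounds). *Mbp*, myelin basic protein, measured 46.5, 42.4, 36.6 and 32.5 CPM against 2743, 2743, 2564 and 2715 CPM (-6.09 ± 0.12). *Trf*, transferrin, was higher in microglia, at 2189.6, 2105, 2084 and 2009 CPM against 365, 371, 340.1 and 348 CPM (2.56 ± 0.04). Of 17 endothelial markers, 14 were at least 20-fold lower (median -8.31, or -8.12 with bounds), among them the tight junction gene *Cldn5*, at 0 counts against 30, 25.6, 24.3 and 24.1 CPM. *Pecam1* was higher, at 36.9, 33, 35.6 and 29.4 CPM against 19.3, 18.1, 19.1 and 17.4 CPM (0.87 ± 0.08), and the glucose transporter *Slc2a1* and the VEGF receptor *Kdr* were not called. *Kdr* differed by -0.53 ± 0.15, close to the 1.5-fold limit, and was called lower without microglia replicate 1 (-0.60) or tissue replicate 2 (-0.59), with total counts as library sizes (-0.59), and with DESeq2 or its size factors (both -0.70). All 10 mural markers and all 8 fibroblast markers were at least 20-fold lower, with medians of -7.78 and -8.70 (-6.40 and -8.10 with bounds). The 9 choroid plexus and ependymal markers tested were lower, 8 of them at least 20-fold (median -7.22, or -6.91 with bounds), and *Ttr*, transthyretin of the choroid plexus, varied among microglia libraries at 1.18, 2.22, 0.0834 and 3.58 CPM against 342, 334, 403 and 299.6 CPM.

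Transcripts of other-cell markers found after sorting were then expressed as a percent of their tissue level. Summed over 78 markers of neurons, astrocytes, oligodendrocytes, precursors and endothelial cells, microglia held 8.52% ± 0.264 (SD, n = 4). That sum was dominated by 7 markers at 10% or more of tissue, which gave 97.8% of it: *Trf* at 589%, *Pecam1* at 183%, *Slc2a1* at 81.9%, *Kdr* at 68.9%, *Slc1a3* at 57.5%, *Cnp* at 27.1% and *Mag* at 15.1%. Over the other 71 markers the sum was 0.201% ± 0.0255, at 0.229%, 0.214%, 0.185% and 0.174% in replicates 1 to 4. These 7 were set aside after their values were seen. Whether the sorted cells make such transcripts themselves was not tested, so the sum of 78 is no estimate of carried-over RNA. The median of the 78 markers was 0.0942%, with 11 at 0, 39 under 0.1% including those 11, 25 between 0.1% and 1%, and 7 between 1% and 10%.

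By cell type, the neuronal sum was 0.0443% ± 0.00616 and the precursor sum 0.0931% ± 0.0428. The astrocyte sum was 3.66% ± 0.154, and 0.0903% without *Slc1a3*. The oligodendrocyte sum was 30.4% ± 1.11, and 2.72% without *Trf*. The endothelial sum was 19.4% ± 1.59, and 14.4% without *Pecam1*. The reduced oligodendrocyte sum still held *Cnp* and *Mag*, and the reduced endothelial sum *Slc2a1* and *Kdr*, all at 10% or more of tissue. Within these 3 lists single markers ranged from 0% to 57.5%, 589% and 183%. The median marker stood at 0.116% for astrocytes, 0.191% for oligodendrocytes and 0.242% for endothelial cells. The myelin genes *Mbp* and *Mobp* stood at 1.47% and 0.105%. Some markers overlap other genes in the annotation and the strandedness of the counting is not given in the sources used here. *Cnp* shares 8912 bases with *Dnajc7* on the opposite strand, which measured 314 CPM in microglia and 124 CPM in tissue, and *Egfl7* and *Pltp*, between 1% and 10%, overlap *Agpat2* and *Ctsa*, both higher in microglia. Reads of the partners cannot be told apart there.

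**Figure D5:**
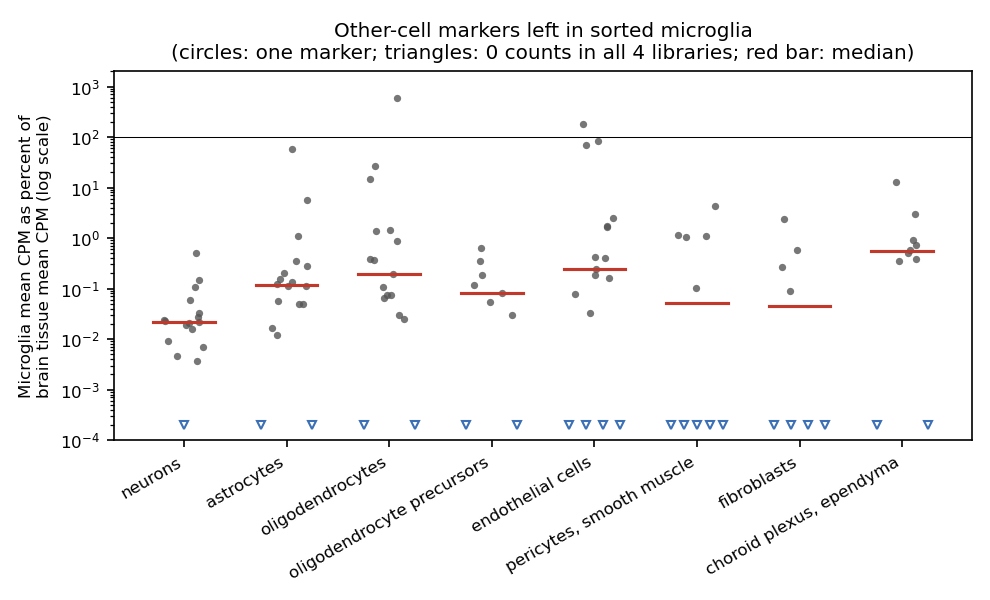
Level in microglia as a percent of the brain tissue level for each marker of neurons, astrocytes, oligodendrocytes, precursors, endothelial cells and other cell types, on a log axis. Triangles mark markers with 0 counts in microglia and are placed at an arbitrary height. Most points lie under 1%, and *Trf* and *Pecam1* lie above 100%.

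Markers of blood and border cells were also examined. Most neutrophils and monocytes carry high CD45 and would fall outside a gate on intermediate CD45. Of 7 neutrophil markers tested, 6 were at least 20-fold higher in microglia, although at low levels, and *Mmp9* was lower. A marker could pass the low-count filter through microglia alone, as *Camp* did with 307 counts there and 2 in tissue, so the 6 are partly a product of the filter. *Cxcr2*, too low to be tested, went the other way with 22 counts in microglia and 41 in tissue. *Ngp*, a granule protein, measured 12.6, 25.4, 15.8 and 17.9 CPM in microglia and 0, 0.285, 0.202 and 0.203 CPM in tissue, and *S100a8*, a calprotectin subunit, 7.97, 21.7, 14.4 and 16.4 CPM and 0.196, 0.19, 0.505 and 0.305 CPM. Summed over the 12 markers of the list, microglia held 44.9 to 90.9 CPM, highest in replicate 2, and tissue 2.84 to 5.96 CPM. *Elane* and *Mpo*, made chiefly by immature granulocytes, had 4 and 6 counts in microglia. Of 3 monocyte markers tested, 2 were higher and 1 lower. *Ccr2* measured 6.86, 6.51, 6.34 and 7.02 CPM against 1.08, 0.38, 0.505 and 0.711 CPM (3.30 ± 0.26), and *Chil3* 3.47, 7.1, 4.42 and 6.65 CPM with 1 count in tissue. *Vcan*, the matrix proteoglycan versican, which oligodendrocyte precursors also make, was at least 20-fold lower, at 0, 0.0739, 0.167 and 0.149 CPM against 24.2, 27.4, 27.8 and 29.1 CPM. *Ly6c2* had 30 counts in microglia and 32 in tissue, and *F10* 0 and 2, and neither was tested. Of the border macrophage markers, *Stab1* was at least 20-fold higher (5.07 ± 0.04), *Cd163* and *F13a1* were lower, *Siglec1* was not called (-0.03 ± 0.32, or 1.29 with the length and GC trend removed), and *Lyve1* and *Pf4* had 3 and 10 counts in microglia and were not tested. *Mrc1* measured 14, 9.76, 8.34 and 9.86 CPM in microglia and lay in a stretch listed at 0 in tissue.

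Lymphocyte markers gave no uniform picture. *Cd79b*, a B cell receptor chain, measured 36.7, 33.8, 40.7 and 34.7 CPM in microglia and 0, 0.19, 0.303 and 0.203 CPM in tissue, and *Ighm* 496, 458, 462 and 435 CPM and 29.3, 28.9, 26.1 and 27.5 CPM (4.05 ± 0.05). The defining B cell genes *Pax5* and *Ebf1* had 0 counts in microglia, *Ms4a1* 2 counts and *Cd79a* 9. Of 13 T and NK cell markers, 11 were too low to be tested, and 7 had 0 counts in every microglia library and 5 in every tissue library. *Cd3g* and *Cd8a* had 0 counts in both groups, and *Cd3e* had 0 in microglia and 4 in tissue. Such zeros do not set microglia apart from tissue. Erythroid genes were not called, and their sum ranged from 7.34 CPM in microglia replicate 3 to 235 CPM in replicate 4, against 107 to 273 CPM in tissue. *Hbb-bs*, adult beta-globin, measured 16.9, 31.9, 1.67 and 80.1 CPM in microglia and 91.6, 63.7, 38.9 and 105 CPM in tissue, and without microglia replicate 4 it was called lower (-2.10). The part of these cells in the 878 genes was not tested.

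The 878 and 3680 genes were also described by annotation, with no test. Protein-coding genes made up 87.8% of the tested genes, 73.3% of the higher (644) and 87% of the lower (3200). Transcripts of the unverified annotation class TEC made up 2.42%, 11.2% (98 genes) and 1.01% (37 genes), respectively. By exonic length, 8.63% of the shortest, 5.46% of the middle and 2.84% of the longest genes were at least 20-fold higher (3 classes of equal size), and by GC content 6.58%, 5.48% and 4.86% from low to high. For the lower genes the shares were 22.1%, 23.6% and 24.9% by length and 19.4%, 23.4% and 27.8% by GC. The median log2 difference of all genes also moved with length (-0.08, -0.22 and -0.63) and GC (-0.07, -0.36 and -0.71), where kit and tissue cannot be told apart.

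Genes near the limit show where it falls. *Tes*, *Tlcd2* and *Pnpla7* lay just inside the upper limit, with log2 differences of 4.32, 4.33 and 4.33, and *Adam17*, *Igtp* and *Stag2* just outside, at 4.32, 4.31 and 4.31. On the lower side, *Mllt11*, *Prepl* and *mt-Nd4* lay just inside (-4.33, -4.33 and -4.33) and *Pcnx2*, *Gpd2* and *Megf9* just outside (-4.32, -4.32 and -4.31). Standard errors in this range, such as 0.108 for *Pnpla7*, exceed the gap between the sides.

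The same contrast was available in separate libraries, 4 of microglia and 4 of brain tissue from LPS-injected mice, where injection no longer differs between tissues but kit and read layout still do. There, 772 of 15372 genes (5.02%) were at least 20-fold higher in microglia and 3680 (23.9%) lower. Of the 878 genes, 798 were tested in these libraries, 796 had the same direction and 638 again passed 20-fold, which is 72.7% of the untreated list and 82.6% of the LPS list. Of the 3680 lower genes, 3502 were tested, 3500 had the same direction and 3359 again passed the limit, 91.3% of each list. The share of all tested genes with the same direction was not counted, so the direction counts lack a background. Kit and read layout divide these libraries as before, so the recurrence does not tell tissue from kit.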

How the data were processed

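Gene-level RNA sequencing values of 4 microglia libraries from PBS-injected mice and 4 libraries of untreated brain tissue were used, with the 8 LPS libraries of the same tissues for recurrence counts. The values are expected counts per gene that the authors deposited, and need not be whole. The labels name genome build mm10. The aligner and counter are not given in the paper or labels used here. Tables were joined on 43241 genes and values rounded. The tissue table had 92 rows naming no gene, with 0 counts in them.

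edgeR 4.0.16 in R 4.3.3 was run with TMM scaling, filterByExpr (minimum count 10, total 15), robust quasi-likelihood fits and Benjamini-Hochberg adjustment. DESeq2 1.42.0 and limma 3.58.1 served as alternatives, beside other filters and scalings. On simulated counts over 15419 genes of this comparison, 50 of 50 genes were called at each of 2-, 8-, 20- and 64-fold, and 12 unchanged genes were called. A call there needed an adjusted p below 0.05, with no fold limit. No other genes were changed, equal numbers went up and down, and every gene had the same dispersion. The simulation therefore does not cover scaling where most genes differ, as they do here. Counting intervals (95%, exact) and the floor of 3 counts over a group (0.0572 CPM in microglia, 0.0741 CPM in tissue) cover counting error only. Between replicates, chi-square per degree of freedom was 3.69 to 7.26 in microglia and 1.76 to 2.38 in tissue, so none were the same library.

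The members and lists were chosen with earlier results of these data known. Genes named are list members (the highest, middle and lowest difference of each list and others), the 12 of highest level per kilobase and the 12 of largest well-counted fold in each direction, 3 on each side of each limit, and *Itgam* and *Ptprc*. *Dnajc7* and *Agpat2*, which overlap markers, were named after values were seen. Some genes that this rule names are not reported here. Gene coordinates are those of the GRCm38 annotation.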

Additional observations from a re-analysis of the deposited data

Results flagged for a closer look

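A library that stood apart from the other 3 of its group was looked for in 346 groups of 4 libraries, over the genes named and the list sums, with Dixon's test, and 15 were found, where chance gives about 1 in 20.

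Among the microglia libraries, replicate 1 was the high one for *Itgam* (1916 CPM, the others 1646 to 1689), *Itgb2* (827, the others 761 to 770.0) and *Tgfbr1* (2784, the others 2503 to 2521). It was the low one for *Slc1a3* (259.8, the others 284 to 288) and for the sum of the astrocyte list that *Slc1a3* dominates (268, the others 290.1 to 294). Replicate 3 was low for *Ccl3* (10.7, the others 15.9 to 16.7) and *Ctsl* (966, the others 1027 to 1032). Replicate 4 was low for *H2-Ob* (58.8, the others 67.5 to 68.5) and high for *Pcnx2* (4.85, the others 3.92 to 4.06).

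Among the tissue libraries, replicate 3 was low for *Mbp* (2564 CPM, the others 2715 to 2743) and *Il34* (39.5, the others 43.0 to 43.5). Replicate 2 was low for *Tgfb2* (16.1, the others 17.9 to 18.1). Replicate 4 was high for *Mef2c* (590.4, the others 565 to 569) and *Slc17a7* (1071, the others 1001 to 1012), and replicate 1 was high for the sum of the lysosome list (2597, the others 2470.2 to 2487).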

How the results depend on the processing

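Over the joined table with the stretches at 0 included, 12683 genes were called, 1112 of them at least 20-fold higher and 3680 lower. Without those stretches, an alternative added after seeing the data, the counts were 12449, 878 and 3680. All other counts of called genes in this section include the stretches, and those without LPS are to be set against 12683, 1112 and 3680. So do the median log2 difference of all genes and the share of higher calls given below. Over the other scalings, tools, filters and sample sets the counts ran from 10245 to 17026, 828 to 1553 and 2726 to 4874, with the lowest from a minimum count of 50 or protein-coding genes alone and the highest from no filter, all within 1.5 times. Leaving out 1 library gave 12845 to 13044, 1116 to 1226 and 3761 to 3781, and 12678 to 12833 after LPS (12477 with all). A test against the 20-fold limit itself gave 951 and 3383. DESeq2 size factors moved the median log2 difference of all genes from -0.287 to -0.457 and the share of higher calls from 43.2% to 39.9%.

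The replicate number shared by the titles did not pair the libraries, with correlations of -0.00143 to 0.0385 between same-numbered libraries, and 2 of 4 correlated best with their own number. With the replicate block the counts were 12622, 1110 and 3686, and 12431 after LPS, and *Fos* was called lower (-2.46).

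The summed level of the 78 other-cell markers was 8.52% of tissue. It was 8.19% with total counts, 7.67% with DESeq2 size factors, 0.965% without the highest marker of each list and 0.0942% as the median marker. With 1 library left out it was 8.42% to 8.63%. As 7 markers gave 97.8% of that sum, it is a marker level and no estimate of carried-over RNA. Among single genes, *Siglec1* turned from -0.03 to 1.29 once the trend with length and GC was removed, and 26 other values of 9 genes crossed a threshold, among them *Slc1a3* (-0.52) and *Ciita* (-0.11), which lost their calls, and *Mef2c* (0.87), which gained one, under that correction. The cause was not tested. Depth limits genes with at most 3 counts in a group, for which bounds or ratios with counting intervals are quoted in place of fitted folds.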
